A study of Homo sapiens and Mus musculus with 12 samples.

Results

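Chromosome 19 carries the densest collection of zinc finger genes of the human genome, and the peak lists of SPI1, GFI1 and LSD1 were counted over all of them. Members were all protein-coding genes of chromosome 19 (GRCh38, GENCODE release 44) with a symbol that begins with ZNF. These were 249 of the 1476 protein-coding genes of the chromosome, and the remaining 1227 genes served as the comparison. A gene was counted as having a peak when a peak touched its window, which is the gene body plus 5 kb on either side. The rule itself reads symbol and chromosome, not peak values.

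Most ZNF genes encode C2H2 zinc finger proteins, in which repeated fingers, each folded around a zinc ion, read the DNA sequence. Many also carry a KRAB domain, which recruits TRIM28 and, through it, the histone methyltransferase SETDB1 and heterochromatin proteins, and a main task of this family is the silencing of transposable elements. The genes arose by tandem duplication and lie in clusters, with the fingers encoded in a single long last exon. LSD1 is a histone demethylase that lacks DNA-binding specificity of its own and is brought to chromatin by partners such as GFI1 and GFI1B, repressors of blood cell genes. SPI1, also called PU.1, is an ETS family activator of myeloid genes.

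The study dealt with the enzymatic and non-enzymatic roles of LSD1 in myeloid development, and its ChIP-seq with the binding of GFI1 in the presence and absence of LSD1. THP1 cells, a human monocytic leukemia line, gave 1 ChIP-seq library for SPI1 and 1 for GFI1. K562 cells, a human leukemia line that expressed Cas9, carried a non-targeting guide RNA (sg-NT) or a guide against LSD1 (sg-LSD1), and gave libraries of LSD1 (sg-NT only) and of GFI1 (both). Cells were crosslinked with DSG (1.5 mM) before formaldehyde (1%). With 1 library per condition, values could not be checked against replicates, and libraries were not tested against each other. LSD1 depletion cannot be checked here, because no LSD1 list of sg-LSD1 cells was analysed.

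The lists held between 160 peaks (GFI1, sg-LSD1) and 6548 peaks (LSD1, sg-NT), of which between 4 and 749 lay on chromosome 19. They hold no read totals. The number of fragments over each summit, solved from its fold (the ratio of pileup to local background at the summit) and its p-value, had a median of 11 to 13 in each list, so weakly bound sites fall below the calling threshold. In K562 cells, 7 of 9 erythroid marker genes, GATA1, GFI1B and KLF1 among them, had an LSD1 peak, beside 2 of 8 monocytic ones and 20.8% of all 20046 protein-coding genes. In THP1 cells, SPI1 was found at 1 of 8 monocytic (CSF1R) and 2 of 9 erythroid marker genes (KLF1 and NFE2), beside 6.36% of all genes, and GFI1 at 2 of 8 (CSF1R and FCGR1A) and 1 of 9 (NFE2), beside 12.1%, so the markers do not set these lists apart as monocytic.

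The sequences below, on the plus strand of GRCh38, show the strongest site at a ZNF gene and the kinds of site that the results turn on. Capitals in the first 5 mark every match, on either strand, to AATCAC (the GFI1 core), GATAA (the GATA core) and GGAAGT (the ETS core), so a core on the minus strand stands as its reverse complement. The upstream site of ZNF77 is shown in 200 bp around the LSD1 summit and around the GFI1 summit of sg-NT cells. ZNF227 is shown for its SPI1 peak, ZNF627 for an SPI1 peak in an intron, and ZNF575 for a strong GFI1 peak with no match to any of the 3 cores. In the last pair, 300 bp inside last exons, capitals mark a stretch that encodes the linker between fingers, HTGEKP.
ZNF77, LSD1 in sg-NT K562 cells, chr19:2949996-2950195: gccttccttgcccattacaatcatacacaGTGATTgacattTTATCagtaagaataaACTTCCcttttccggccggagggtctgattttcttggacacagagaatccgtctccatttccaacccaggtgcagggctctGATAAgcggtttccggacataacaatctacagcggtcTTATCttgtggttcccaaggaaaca
ZNF77, GFI1 in sg-NT K562 cells, chr19:2949909-2950108: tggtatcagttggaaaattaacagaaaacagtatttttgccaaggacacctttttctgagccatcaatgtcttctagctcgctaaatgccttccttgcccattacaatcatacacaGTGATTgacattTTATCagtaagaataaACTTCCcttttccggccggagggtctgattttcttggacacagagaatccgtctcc
ZNF227, SPI1 in THP1 cells, chr19:44207381-44207580: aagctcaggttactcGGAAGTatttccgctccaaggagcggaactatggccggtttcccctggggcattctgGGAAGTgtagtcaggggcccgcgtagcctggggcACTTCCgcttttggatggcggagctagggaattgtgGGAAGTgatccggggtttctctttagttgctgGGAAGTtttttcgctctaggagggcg
ZNF627, SPI1 in THP1 cells, chr19:11584050-11584249: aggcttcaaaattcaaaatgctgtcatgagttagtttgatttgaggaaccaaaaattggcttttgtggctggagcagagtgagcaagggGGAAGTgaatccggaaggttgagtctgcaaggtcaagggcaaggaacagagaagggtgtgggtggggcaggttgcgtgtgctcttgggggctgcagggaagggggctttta
ZNF575, GFI1 in THP1 cells, chr19:43532966-43533165: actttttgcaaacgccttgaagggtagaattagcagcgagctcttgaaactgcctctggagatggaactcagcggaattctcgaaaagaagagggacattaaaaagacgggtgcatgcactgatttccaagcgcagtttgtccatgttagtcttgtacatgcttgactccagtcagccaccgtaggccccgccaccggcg
ZNF557, GFI1 in THP1 cells, chr19:7083040-7083339: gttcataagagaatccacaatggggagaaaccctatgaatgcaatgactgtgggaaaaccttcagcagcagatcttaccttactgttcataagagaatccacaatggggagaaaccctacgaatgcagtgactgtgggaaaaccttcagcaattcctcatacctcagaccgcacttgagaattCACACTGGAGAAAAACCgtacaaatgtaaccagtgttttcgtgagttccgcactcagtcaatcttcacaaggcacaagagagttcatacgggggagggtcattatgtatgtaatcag
ZNF556, LSD1 in sg-NT K562 cells, chr19:2877488-2877787: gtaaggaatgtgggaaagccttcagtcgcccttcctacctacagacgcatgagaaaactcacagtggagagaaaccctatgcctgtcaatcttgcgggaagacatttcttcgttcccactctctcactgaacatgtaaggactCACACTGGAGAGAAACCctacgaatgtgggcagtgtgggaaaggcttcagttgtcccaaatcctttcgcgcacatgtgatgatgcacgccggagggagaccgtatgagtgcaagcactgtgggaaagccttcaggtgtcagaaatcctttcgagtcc

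Few ZNF genes of chromosome 19 had a peak of any factor. A peak in at least 1 of the 5 lists was found at 45 members (18.1%), beside 594 of the other genes of the chromosome (48.4%). Of the 45, 39 had a peak in exactly 1 list and 6 in 2 lists, and 0 had one in 3 or more. The other 204 members had no peak, among them ZNF729 and ZNF208, the members with the most fingers (39 and 36), and ZNF91 (32 fingers), which is known to silence SVA retrotransposons.

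In the LSD1 list of sg-NT K562 cells, 28 members (11.2%, 95% Wilson interval 7.9 to 15.8%) had a peak, beside 41.3% of the other genes of chromosome 19 (38.6 to 44.1%). The ratio of these shares was 0.272 (0.191 to 0.388). All intervals cover counting error only, and peaks that touch several windows count for each gene. Outside chromosome 19, 20.6% of 267 ZNF genes and 19.5% of the other genes had an LSD1 peak, so the other genes of chromosome 19 stood above both groups and the ZNF genes of chromosome 19 below both.

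GFI1 in THP1 cells was found at 17 members (6.83%, 4.31 to 10.7%), beside 14.2% of the other genes of the chromosome (12.3 to 16.2%), a ratio of 0.481 (0.298 to 0.777). On other chromosomes the shares were 8.61% of ZNF genes and 12.1% of other genes. SPI1 in THP1 cells was found at 5 members (2.01%, 0.861 to 4.61%), beside 6.28% of the other genes (5.05 to 7.77%), with a ratio of 0.32 (0.131 to 0.782). For both factors the intervals of ZNF genes on and off chromosome 19 overlapped.

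GFI1 in sg-NT K562 cells was found at 1 member, ZNF77 (0.402%), beside 1.63% of the other genes of the chromosome, and the ratio of 0.246 had an interval from 0.0332 to 1.83. In sg-LSD1 cells the count was 0 of 249, with a Wilson interval up to 1.52% (3 counts of 249, the limit set for a count of 0, are 1.2%), beside 0.326% of the other genes. With counts this small, a difference between ZNF and other genes was not detectable in either list. The 19 other zinc finger genes of chromosome 19, taken by symbol alone, had an LSD1 peak at 6 (31.6%, 15.4 to 54%), with ZBTB7A, ZBTB32 and ZBTB45 among them. ZFP14, ZFP28, ZFP30, ZFP82, ZIM2, ZIM3, ZIK1 and PEG3 had none. The interval of the 19 lay mostly above that of the ZNF members (7.9 to 15.8%) and overlapped it only at the edge. Whether the low share is particular to ZNF symbols was not tested.

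The same gap was seen per length of DNA. LSD1 summits numbered 3.19 per Mb in the windows of ZNF genes (30 summits in 9.42 Mb), beside 19.2 per Mb in the windows of other genes. In DNA that lies in windows of both kinds, where a ZNF gene has another gene close by, the density was 7.84 per Mb, and in windows of ZNF genes alone it was 2.1 per Mb. The GFI1 densities in THP1 cells were 1.49 and 4.23 per Mb, and the SPI1 densities 0.425 and 1.85 per Mb, in windows of ZNF and of other genes.

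The windows of ZNF genes differed in base composition and length from the others, and the shares moved with both. Median GC content was 43.9% in ZNF windows and 53.3% in the other windows, and median gene length was 26.1 kb and 13.8 kb. An LSD1 peak was found at 2.17% of ZNF genes whose window had under 42% GC (2 of 92) and at 6.25% of the other genes in that range (2 of 32). Between 42 and 46% GC the shares were 14.0% (14 of 100) and 11.6% (11 of 95), and between 46 and 50% they were 16.7% (5 of 30) and 19.7% (28 of 142). In these 3 ranges the intervals of ZNF and other genes overlapped. At 50% GC or more, the shares were 25.9% (7 of 27, 13.2 to 44.7%) and 48.6% (466 of 958, 45.5 to 51.8%), a ratio of 0.533 (0.281 to 1.01). With both groups limited to windows of 10 to 50 kb under 50% GC, the LSD1 shares were 10.7% of 169 ZNF genes and 9.14% of 197 other genes, a ratio of 1.17 (0.627 to 2.17). These ranges were chosen after the data were seen, and the part of base composition in the lower share of ZNF genes was not tested.

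For GFI1 in THP1 cells, the shares by the same GC ranges were 3.26% of ZNF and 3.12% of other genes under 42%, then 6.0% and 11.6%, 6.67% and 14.8%, and 22.2% and 14.7% at 50% or more. The intervals overlapped in each range. The 22.2% is 6 of 27 ZNF genes, namely ZNF575 and the neighbours ZNF524, ZNF865, ZNF784, ZNF580 and ZNF581. The peaks at these neighbours were shared between them, so the genes are not independent. With windows of 10 to 50 kb under 50% GC the ratio was 0.48 (0.204 to 1.13), close to the 0.481 over all genes, with an interval that then included 1. By gene length, the ratio of LSD1 shares was 0.5 (0.202 to 1.24) under 10 kb, with 16% of ZNF and 32% of other genes, 0.281 (0.176 to 0.449) from 10 to 30 kb and 0.166 (0.0848 to 0.326) at 30 kb or more, with 8.42% and 50.7%. The ratio was thus lowest in the longest genes.

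Within the family, the shares of LSD1 and of GFI1 in THP1 cells were higher among members without KRAB letters. KRAB letters (EEW or LYRDVM in the translated protein) were found in 197 members, and 17 of these (8.63%, 5.46 to 13.4%) had an LSD1 peak, beside 11 of the 52 without (21.2%, 12.2 to 34%), a ratio of 2.45 (1.22 to 4.91). For GFI1 in THP1 cells the shares were 4.57% (2.42 to 8.45%) and 15.4% (8.01 to 27.5%), a ratio of 3.37 (1.37 to 8.3). For SPI1 the ratio was 0.947 (0.108 to 8.29). The search reads 2 short letter runs, so a member without them may still encode a KRAB domain. KRAB letters were found in 60% of members outside the clusters described below and in 60.9 to 92.3% within each cluster. Among ZNF genes, the LSD1 and GFI1 shares were also highest at 50% GC or more. For GFI1, most members with a peak in that range were neighbours that shared peaks, described below. The parts of GC content and of place in the higher shares without KRAB letters were not tested. The members with an LSD1 peak had a median of 10 fingers, those without 13.

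A total of 199 members lay in 7 clusters, defined as runs of at least 10 members with gaps of at most 250 kb, and 50 lay outside. GFI1 in THP1 cells was found at 8 members in clusters (4.02%, 2.05 to 7.73%) and at 9 outside (18%, 9.77 to 30.8%), a ratio of 4.48 (1.82 to 11). The 9 include ZNF524, ZNF865, ZNF784, ZNF580 and ZNF581, neighbours in chr19:55600022-55645623, where each peak was counted for 2 of them. The peak of ZNF524 and ZNF865 ranked 3448 of 3461. These neighbours are also among the 8 members without KRAB letters that had a GFI1 peak. The intervals of both ratios take them as independent genes. The LSD1 shares were 9.55% (6.2 to 14.4%) in clusters and 18% outside, a ratio of 1.89 (0.909 to 3.91). All 5 members with an SPI1 peak lay in clusters, as did 199 of all 249 members. The SPI1 shares were 2.51% (1.08 to 5.75%) in clusters and 0% (0 to 7.13%) outside, with intervals that overlapped. The median GC content of windows was 46.2% outside clusters and between 39.5 and 45.6% in the 7 clusters. Its part in the GFI1 and LSD1 ratios was not tested. The 76 other genes inside the cluster spans had an LSD1 peak in 30.3% (21.1 to 41.3%), above the ZNF genes of the clusters and below the 42.1% of other genes elsewhere on the chromosome.

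Counts within single clusters were small, and a difference between clusters was not tested. The cluster from ZNF653 to ZNF791 (chr19:11483427-12640098) held 6 of 26 members with an LSD1 peak and 3 with an SPI1 peak, the highest counts of the 7 clusters for both. The cluster from ZNF565 to ZNF573 (chr19:36182276-37817300) held 0 of 26 with an LSD1 peak and 3 with a GFI1 peak in THP1 cells. The LSD1 intervals of these 2 clusters (11 to 42.1% and 0 to 12.9%) overlapped. The longest cluster, from ZNF737 to ZNF254 near the centromere (chr19:20535825-24129968, 3.59 Mb), had the lowest median GC content (39.5%) and, of 29 members, 1 with LSD1 (ZNF681) and 1 with SPI1 (ZNF85).

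The single site that stood out lay upstream of ZNF77, a KRAB member with 13 fingers on the minus strand (chr19:2933218-2944971). The LSD1 peak at chr19:2949564-2950467 reached a 23.4-fold enrichment at a −log10 p of 60.5, with 47 fragments over the summit, and ranked 55 of 6548 in the list. The GFI1 peak of sg-NT cells at chr19:2949775-2950358 overlapped it, at 13.8-fold, −log10 p 26.3 and 21 fragments, and ranked 30 of 498. The summits lay 5125 and 5038 bp upstream of the gene start, so only the near edge of each peak fell within the 5 kb window, and position alone does not assign the site to ZNF77. No peak was called there in sg-LSD1 cells, whose list is the shortest. As printed above, the AATCAC match, on the minus strand, lies 16 bp after the GFI1 summit and 71 bp before the LSD1 summit, which is the same genomic place, with 2 further GATA cores near the LSD1 summit only. A second LSD1 peak of ZNF77, in its last exon, had a fold of 7.93.

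LSD1 peaks at members were mostly weaker than those at other genes of the chromosome. The 31 distinct peaks had medians of 5.85 (fold) and 8.77 (−log10 p), and the 30 without the ZNF77 upstream site 5.85 and 8.73. The 623 peaks at other genes had 7.4 and 12.5, and 7.45 and 12.6 without the 14 that also lay at members. Of the 31, 8 lay above the median fold of the 623, and 13 (41.9%, beside 20.2% of the 623) were below a −log10 p of 8. ZNF562, a KRAB member, had the strongest promoter peak, 972 bp from a transcript start, at 12.7-fold and −log10 p 25.4. The peak counted for ZNF653 (fold 10.7, −log10 p 19) lay beyond its 3′ end and also in the window of ELAVL3, a neuronal RNA-binding protein gene. ZNF699 had a promoter peak (fold 8.28, −log10 p 14.6), and ZNF564 (7.87 and 13.1) and the readthrough gene ZNF816-ZNF321P (7.08 and 14.8) had intronic ones.

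ZNF627 had the most LSD1 peaks, 3 between its promoter and the first part of its body, with folds of 6.14, 7.45 and 5.85, 2 of them also in the window of the neighbouring ELOF1, a transcription elongation factor gene. ZNF628 had 2 (folds 6.11 and 8.59), the stronger one beyond its 3′ end in the windows of NAT14 and SSC5D, and ZNF681 had 2 at a fold of 5.52 each. Of the 31 LSD1 peaks, 14 lay also in the window of a gene that is no ZNF gene. ZNF274, known to recruit the SETDB1 complex to the 3′ ends of zinc finger genes, had a promoter peak with a fold of 5.52 and 8 fragments over the summit (rank 5337 of 6548), and is named here after its values were seen.

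GFI1 peaks at members in THP1 cells were few, with medians above those at other genes. The 14 distinct peaks had medians of 9.49 (fold) and 16.3 (−log10 p), beside 7.41 and 11.3 for the 138 peaks at other genes of the chromosome. Of the 14, 3 (21.4%) were below a −log10 p of 8, beside 19.6% of the 138. ZNF57 had the strongest (fold 14.9, −log10 p 28.7), 575 bp upstream of its start, and ZNF575 the next (14.4 and 28.3), 102 bp from an internal transcript start. ZNF433 had an intronic peak (13.5 and 24.9).

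Several of these GFI1 peaks were shared by neighbours. A peak 12 bp from a transcript start of ZNF580 lay also within ZNF581 (fold 11.4, −log10 p 22.6), and a peak 323 bp upstream of ZNF527 lay beyond the 3′ end of ZNF875 (11.5 and 20.5). ZNF134 had a peak in its last exon (10 and 17.1). With shared peaks given only to the gene with the nearest start, 10 members had a GFI1 peak.

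SPI1 was found at 4 distinct sites. The strongest lay 66 bp upstream of the start of ZNF227, a KRAB member with 18 fingers, at 9.3-fold, −log10 p 22.4 and 28 fragments. ZNF85 had a promoter peak (fold 7.07, −log10 p 10.6). ZNF627 had one in an intron that also lay in the window of ACP5, an acid phosphatase of macrophages and osteoclasts (7.19 and 10.8), and ZNF490 and ZNF791 shared the weakest (6.3 and 9.05).

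**Figure D1:**
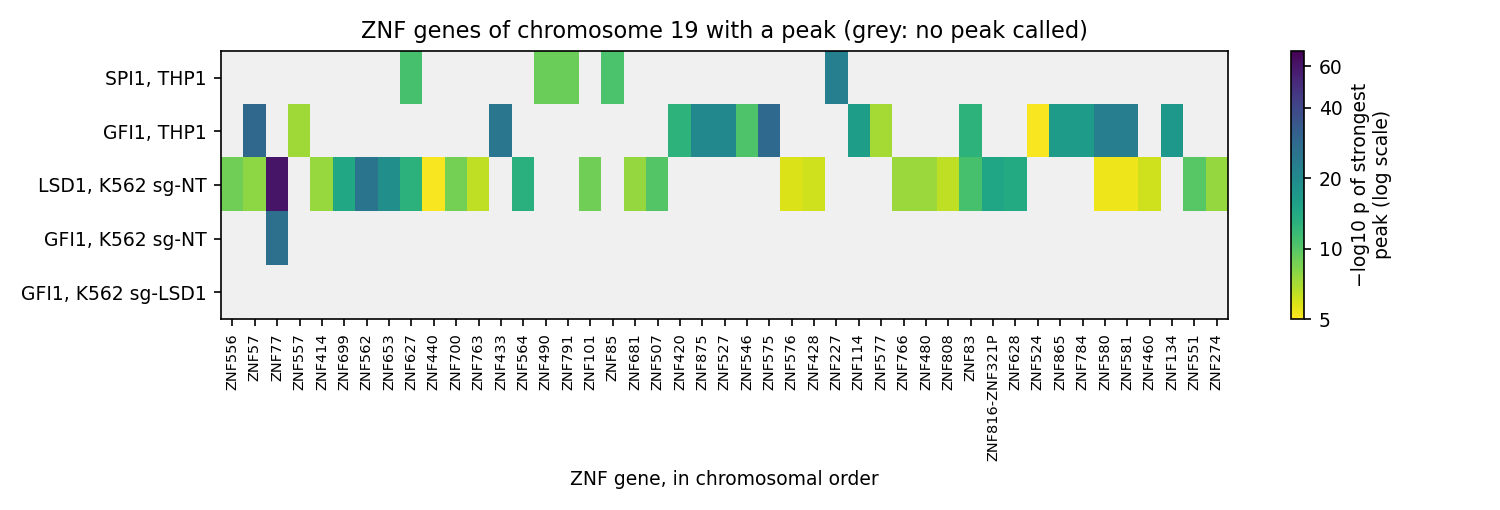
Strongest peak (−log10 p, colour on a log scale) at each of the 45 ZNF genes with a peak (x axis, in chromosomal order) in each library (y axis); grey means that no peak was called. ZNF77 has the highest value (60.5, LSD1) and is the only gene with a GFI1 peak in K562 cells, and most columns hold a single coloured cell.

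Few members had more than 1 factor. Of the 28 members with LSD1 in sg-NT K562 cells and the 17 with GFI1 in THP1 cells, 4 were common. These, ZNF57, ZNF83, ZNF580 and ZNF581, were 14.3% of those with LSD1, beside the 6.83% of all members with GFI1. They were 23.5% of those with GFI1, beside the 11.2% of all members with LSD1. At 0 of the 4 did the peaks share a base. Among the other genes of the chromosome, 106 were common, 20.9% of those with LSD1 and 60.9% of those with GFI1, beside 14.2% and 41.3% of all these genes, and peaks overlapped at 38 of them. ZNF627 was the only member with both SPI1 and LSD1, at separate places. SPI1 and GFI1 in THP1 cells had 0 members in common. With 5 and 17 members in the lists (2.01% and 6.83%), an overlap of 0 cannot be read as a result. Among the other genes 34 were common, 44.2% of the 77 with SPI1 and 19.5% of the 174 with GFI1. The shares of all these genes were 14.2% with GFI1 and 6.28% with SPI1. In K562 cells, the GFI1 peak at ZNF77 overlapped LSD1, as did a GFI1 peak at 19 of the 20 other genes with one. Of all these other genes, 41.3% had an LSD1 peak. The paper reports that most GFI1 sites of sg-NT cells were shared with LSD1, so this overlap is not particular to ZNF77. Cell line and antibody differ together in the comparisons across lines, so their parts cannot be told apart.

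By place, promoters held 13 of the 31 LSD1 peaks at members (41.9%, 26.4 to 59.2%), where a promoter is 1000 bp on either side of a transcript start, beside 42.2% of the peaks at other genes. Introns held 5 (16.1%, 7.09 to 32.6%), beside 40.1%, and last exons 4 (12.9%, 5.13 to 28.9%), beside 2.25% (1.34 to 3.74%). Last exons made up 9.79% of the DNA of ZNF windows and 4.54% of that of other windows, so 12.9% was close to the share of length. The 4 were at ZNF77, ZNF556, ZNF700 and ZNF763. For GFI1 in THP1 cells, 8 of 14 peaks lay at promoters (57.1%, 32.6 to 78.6%), beside 42% at other genes, and 2 in last exons (ZNF557 and ZNF134).

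Of these 6 last-exon peaks, 5 held finger coding sequence at the summit. The coding stretch of the linker HTGEKP, searched with any base at degenerate positions, was in the 300 bp around the summit of 3 of 31 LSD1 peaks at members (ZNF556, ZNF700 and ZNF763), beside 10 of all 6548 LSD1 peaks, and of 2 of 14 GFI1 peaks, beside 3 of 3461. With the exact codons alone the numbers were 3 and 1. The linker stretch encodes zinc fingers, so a higher share at members than in a whole list follows from the choice of genes. This stretch occurs in the last exon of 215 of the 249 members (86.3%), whereas a peak touched the last exon of 4 members in the LSD1 list and of 2 in the GFI1 list. ZNF556, ZNF557, ZNF700 and ZNF763 are named for this place after their values were seen.

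For the GFI1 and GATA cores, the share at members had an interval that held the share of the whole list. In 200 bp, AATCAC was found at 4 of 14 GFI1 peaks at members (28.6%, 11.7 to 54.6%), beside 27.8% of the whole list, at ZNF527, ZNF546, ZNF865 and ZNF134. GATAA was found at 10 of 31 LSD1 peaks (32.3%, 18.6 to 49.9%), beside 41.1%. The SPI1 core GAGGAAGT was found at 0 of 4 SPI1 peaks, beside 38.9% of the list. Its shorter part GGAAGT, searched after the data were seen, was found at 3 of 4, beside 77.8%, and the ZNF227 window printed above holds 5 matches.

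RefSeq promoters (GRCh38.p14) were matched by symbol for 218 of the 249 members, 270 entries in all. In the 200 bp up to 50 bp after the start, GGAAGT was found in 35.6% of them (30.1 to 41.4%), beside 17.3% of all 35116 promoters. AATCAC was found in 3.33%, beside 6.91%, and GATAA in 14.4%, beside 14.9%. The core GGAAGT was in 96 of the 270 entries. SPI1 peaks at 2 members, ZNF227 and ZNF85, lay within 1000 bp of a start, and the 200 bp at the ZNF85 summit held no GGAAGT. Members with a peak and promoter entries were counted over unlike windows, so these counts are not directly comparable.

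The genes of the silencing machinery that KRAB proteins use were examined alongside. Of 20 such genes, 5 (25%) had an LSD1 peak in sg-NT K562 cells, close to the 20.8% of all protein-coding genes. Among them were DNMT1, the maintenance DNA methyltransferase (fold 7.93), and PPHLN1 and TASOR, subunits of the HUSH complex (6.75 and 4.28). CBX1, a heterochromatin protein, was another (4.91). The peaks at TASOR and CBX1 had a −log10 p of only 5.31 and 6.45. A GFI1 peak in THP1 cells was found at 1 of the 20 (5%), beside 12.1% of all genes. This was UHRF1, which guides DNMT1 to newly copied DNA (fold 14.1). TRIM28 itself had 0 peaks in each of the 5 lists. None of these genes had an SPI1 peak or a GFI1 peak in K562 cells.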

How the data were processed

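ChIP-seq peak lists of 5 of the 12 samples were analysed, 2 libraries from THP1 and 3 from K562 cells. Input and murine CD117 H3K4me1 samples were not used here. Per the study's methods and the submitters' processing notes, the authors used Trim Galore 0.6.1 for trimming, Bowtie2 2.5.4 for alignment (GRCh38), Picard 3.1.0 against duplicates and MACS2 2.2.9.1 for peaks of each library (p cutoff 1e-05), without blacklisted regions. Whether input served as the MACS2 control, and how reads mapping to several of the similar ZNF genes were handled, is not given in the sources used here.

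The deposited fold of a peak is the ratio of pileup to background at the summit. The deposited −log10 p and −log10 q are the authors' p-value and q-value. The deposited score was not used. The deposited summit position (the peak's start plus an offset) was used to place peaks. Fragments over a summit were solved from the fold (with a pseudocount of 1) and the Poisson p, and came out whole for at least 99.97% of the peaks of each list, within 0.01 of the −log10 p.

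Genes came from GENCODE release 44. An overlap needed at least 1 bp, and counts were checked with bedtools 2.31.1 and tested on simulated data. KRAB letters and fingers were searched in the translated canonical coding sequence. Shares have 95% Wilson intervals, and ratios of shares 95% intervals on a log scale. No p-value was computed. A count of 0 was given a limit of 3 counts. The genes named are, per list, the 8 members with the largest −log10 p (all for GFI1 in K562 cells), the 5 members with most LSD1 peaks, members with peaks in 3 lists and genes of the lists with a peak, apart from those the text says were chosen later and those that illustrate a count. Members, gene lists and alternatives were chosen with earlier results of these data known. Software was Python 3.11.15 with scipy 1.17.1, numpy 2.4.6, matplotlib 3.10.9 and pysam 0.24.0. Some items of the gene list and of the printed sequences are not reported here.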

Additional observations from a re-analysis of the deposited data

How the results depend on the processing

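Of 97 values under alternatives whose reported value has an interval, 78 stayed within it. The other 13 have no interval, most of them ratios fixed at 0 for GFI1 in sg-LSD1 cells. The ratios of SPI1 and GFI1 in THP1 cells and of LSD1 were below 1 under 35 of 36 alternatives. The exception, chosen after the data were seen, was LSD1 with windows of 10 to 50 kb under 50% GC in both groups, at 1.17 (0.627 to 2.17). With other genes limited to the GC range of the ZNF genes, also chosen after the data were seen, the LSD1 ratio was 0.624 (0.408 to 0.955). The interval of the SPI1 ratio came to include 1 under 4 alternatives, which were gene bodies alone (0.483, 0.195 to 1.2), transcript starts (0.394, 0.094 to 1.65), other genes in the GC range (0.492, 0.176 to 1.38) and windows of 10 to 50 kb under 50% GC (0.5, 0.131 to 1.9). That of GFI1 in THP1 cells did so under 2, transcript starts (0.616, 0.312 to 1.22) and windows of 10 to 50 kb under 50% GC (0.48, 0.204 to 1.13).

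A −log10 p of at least 8 lowered the LSD1 share to 5.62% and its ratio to 0.159. Gene bodies without flanks gave an LSD1 share of 7.23%, 20 kb flanks 16.5%, transcript starts within 1000 bp 5.22% and 1 gene per peak 7.23%. Transcript starts gave shares of 3.61% for GFI1 and 0.803% for SPI1 in THP1 cells, and 1 gene per peak 4.02% for GFI1. For GFI1 in sg-NT K562 cells, share and ratio were 0 in gene bodies, at transcript starts and with the summit in the window, since ZNF77 no longer counted. The 4 members with both LSD1 and GFI1 (THP1) became 1 at a −log10 p of at least 8 and 0 in gene bodies. In 50 bp at the summit, GATAA was found at 6.45% of LSD1 peaks and 0% of GFI1 peaks (THP1) at members, a change that the shorter window brings with it.

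No paired analysis was possible because each condition analysed had 1 library and no test was made. The lists hold only sites above the calling threshold, so a missing peak is not an absent factor. Peaks near several genes cannot be given to one of them from position alone.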
